A study of Mus musculus with 2 samples.

Results

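*Ednrb*-rich stem cells (SCs) of the early postnatal mouse pituitary are described here from single-cell RNAseq counts. Their members were chosen by the counts themselves, so every level given for them is a description and no test was made on the genes of the rule. A barcode with at least 1000 genes and at most 10% of mitochondrial UMIs (unique molecular identifiers, counts of captured RNA molecules) was a member if it had at least 2 UMIs of *Ednrb*, at least 1 of *Sox2*, none of *Lef1*, and no more than 2 of *Col1a1* and *Col3a1* together. A member also had at most 1 UMI summed over 7 genes of G2 and mitosis and at most 2 summed over 7 genes of S phase. In all, 1042 of the 16365 deposited barcodes met this rule, 298 of 10569 male and 744 of 5796 female ones. They were compared with the other 9736 barcodes that passed the same limits on genes and mitochondrial UMIs and had a *Sox2* UMI, 5601 male and 4135 female, always within a library.

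Each library holds sorted SOX9iresGFP+ve cells of 3 pooled *Sox9iresGFP/+* pituitaries at postnatal day 3, males (XY) in 1 library and females (XX) in the other. All animals carried the *Sox9iresGFP* allele, no treatment is named in the labels, and no library of the *Sox9iresGFP*-negative cells was analysed here. The reporter protein outlasts SOX9 itself, and a sorted cell need not still have been making SOX9. With 1 library per sex, the sex of the animals cannot be told apart from the library, and no p-value is given. Levels are UMIs of a gene summed over the barcodes of a class, scaled to 1000000 UMIs of that class (CPM), with exact Poisson 95% intervals in parentheses, and shares of barcodes have exact Clopper-Pearson 95% intervals. All intervals cover counting error only, not the spread between animals. Where a pair of values is given with no other mark, the male library comes first.

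Pituitary SCs express SOX2 and SOX9, line the cleft between the anterior and intermediate lobes, and are also scattered through the anterior lobe. *Ednrb* encodes the endothelin receptor type B, a G protein-coupled receptor for the endothelin peptides, and marks the epithelial SCs of the cleft. Cells that leave the SC state lose SOX2 and pass through committed progenitors before they make hormones.

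The members carried fewer UMIs than the class they were compared with. Members had medians of 8025 UMIs and 2908 genes (male library) and of 8187 UMIs and 2854 genes (female library), against 11708 and 10421 UMIs in the other *Sox2*-positive barcodes. The limits on cell cycle genes favour shallow barcodes and the *Ednrb* minimum favours deep ones, so depth is part of the rule. Scrublet, a doublet caller, scored every barcode past the limits. Among the highest-scoring barcodes of each library were 3.69% of male and 2.55% of female members, against 7.46% and 5.42% of the other *Sox2*-positive barcodes. The libraries shared 19 barcode sequences, 7 of which were a member in at least 1 library and 0 in both. Markers of other cells were low in members: 6 endothelial genes summed to 3.10 and 2.75 CPM with *Tek* at 0, 8 blood and immune genes to 0.689 and 1.07 CPM with *Ptprc* and *Tyrobp* at 0, and 8 genes of mesenchyme and pericytes outside the rule to 29.6 and 22.8 CPM. The sum of these 8 was 111 and 62.4 CPM in the other *Sox2*-positive barcodes, which the collagen limit does not bind, and 16.6 and 11.3 CPM in barcodes of the same rule without *Ednrb*, below the members. Genes of neural crest and Schwann cells summed to 32.7 and 34.4 CPM with *Foxd3* at 0, against 30.4 and 31.3 CPM in the other *Sox2*-positive barcodes. Those of posterior lobe pituicytes summed to 13.1 and 5.66 CPM against 9.19 and 5.85 CPM. The endothelial sums were 4.09 and 2.34 CPM in the other *Sox2*-positive barcodes, and 1.42 and 1.14 CPM in barcodes of the same rule without *Ednrb*. These low levels thus did not set the members below the other *Sox2*-positive barcodes in each list.

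The label comes with 4 markers that the rule did not use, *Mme*, *Cldn4*, *Ctgf* and *Sox9*. *Mme* encodes neprilysin, a membrane peptidase that degrades endothelins and other small peptides. *Cldn4* encodes a tight junction claudin and *Ctgf* a secreted matricellular protein. These markers were chosen with earlier results of these data known, so their levels describe the members and are no independent check of the label. All were higher in members than in the other *Sox2*-positive barcodes of the same library. *Mme* was at 79.2 CPM (69.3 to 90.2) in male and 104 CPM (96.3 to 112) in female members, against 12.7 and 23.9 CPM, which is 6.23-fold (5.38 to 7.20) and 4.34-fold (3.94 to 4.78). *Cldn4* stood at 97.8 CPM (86.8 to 110) and 108 CPM (99.9 to 116) against 18.3 and 34.1 CPM. *Ctgf* had 46.2 CPM (38.7 to 54.7) and 67.8 CPM (61.7 to 74.5) against 9.82 and 19.5 CPM, and was under 50 CPM, the minimum set below for counted genes, in the male library. *Sox9* differed least, at 132 CPM (119 to 145) and 145 CPM (136 to 154) against 72.6 and 81.3 CPM. Only 13.8% of male and 13.6% of female members had no UMI of any of these 4 genes, against 45.1% and 38.3% of the other *Sox2*-positive barcodes. In members, *eGFP* had 31.4 CPM (25.2 to 38.5) and 15.7 CPM (12.9 to 19.1), against 16.2 and 12.1 CPM.

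In single barcodes, *Mme* and *Cldn4* were found more often in members than in the other *Sox2*-positive barcodes or in collagen-rich barcodes without *Sox2*. A UMI of *Mme* was present in 40.3% (34.7 to 46.1) of male and 43.8% of female members, and in 10.6% and 16.6% of the other *Sox2*-positive barcodes. After each barcode was thinned to 5000 UMIs, the shares were 29.8% and 31.8% in members, and 5.11% and 9.94% in the others. Thinning left out 33 male and 28 female members with fewer UMIs, and 691 and 90 of the other barcodes. Collagen-rich barcodes without *Sox2* had medians of 8644 and 8002 UMIs. Of these, 5.54% and 2.39% had a *Mme* UMI after thinning, and 8.73% and 6.02% before it. In thinned barcodes of the same rule without *Ednrb* the shares were 3.31% and 6.78%. Collagen-rich barcodes were thus not the lowest class for *Mme* in the male library, with overlapping intervals. The source of their *Mme* UMIs was not tested. *Cldn4* was found in 31.7% and 35.5% of thinned members, in 8.74% and 14.7% of the thinned others, and in 0 of 433 male (which allows up to 0.848% at the upper 95% bound) and 1.20% of female collagen-rich barcodes. Before thinning, its shares were 48.3% and 48.2% in members, 17.1% and 25.1% in the others, and 0.437% and 1.13% in collagen-rich barcodes. *Aldh1a2*, which encodes a retinaldehyde dehydrogenase and marks anterior lobe SCs, was also frequent, in 78.9% and 70.4% of thinned members against 61.7% and 63.6% of the others, and 6.47% and 2.79% of collagen-rich barcodes, and before thinning in 84.6% and 81.5%, 74.2% and 76.4%, and 10.9% and 8.27%. With *Ednrb* present by the rule, most members had UMIs of both SC markers.

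*Ednrb* itself, the gene that chose the members, ranged from 2 to 14 UMIs per male member and from 2 to 25 UMIs per female member, with a median of 3 in both. Of the barcodes that met every other criterion, 12.4% (11.1 to 13.8) of male and 29.3% (27.6 to 31.2) of female ones had 2 or more *Ednrb* UMIs. Members were 5.05% (4.51 to 5.64) of male and 15.2% (14.3 to 16.3) of female *Sox2*-positive barcodes, a female to male ratio of 3.02 (limits of 2.53 to 3.61). With the rule applied after thinning, the shares were 4.22% and 12.4%. The female share thus stayed above the male one at equal depth, in 1 library of each sex. Just inside the threshold, 128 male and 281 female members had exactly 2 *Ednrb* UMIs, and *Mme* was at 55.7 and 74.6 CPM in them. Just outside it, 366 and 423 barcodes with 1 *Ednrb* UMI that met the rest of the rule had *Mme* at 27.2 and 40.0 CPM. *Krt18* was at 1230 and 1131 CPM inside and at 835 and 972 CPM outside.

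**Figure D1:**
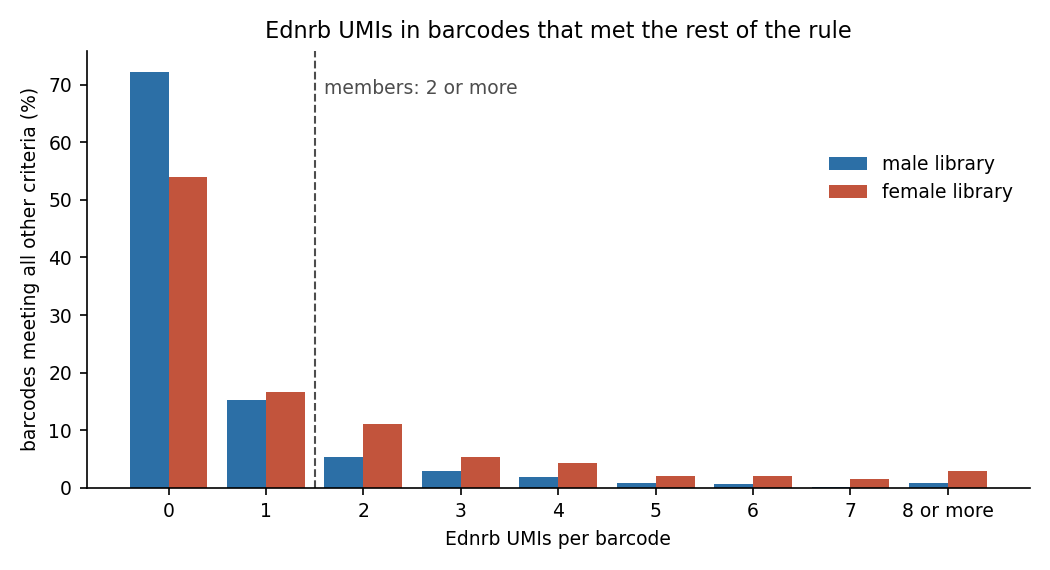
Percent of barcodes (vertical axis) by *Ednrb* UMIs per barcode (horizontal axis) among those that met every other criterion, with bars for the male and female library and a dashed line at the threshold. Of these barcodes, 72.3% of the male and 54.0% of the female ones had no *Ednrb* UMI. Every bar from 2 UMIs on is higher in the female library.

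Against the other *Sox2*-positive barcodes, 3130 genes reached 50 CPM in at least 1 class and 100 UMIs over both classes, in each library. Of these, 50 (1.6%) were at least 2-fold higher in members in both libraries, and 61 (1.95%) at least 2-fold lower, while the median log2 fold over all of them was -0.01 for males and nearer to 0 for females. The first number holds *Ednrb* and the second 8 genes of the rule. Outside the rule, the highest folds in the weaker library belonged to *Mme*, *Pid1*, *Cldn4*, *Oasl2*, *Cd59a*, *Tm4sf1*, *Cldn23* and *Samd9l*. The lowest were of genes of mitosis and DNA replication, led by *Nusap1*, *Pclaf*, *Cdca8* and *Tpx2*, which the cell cycle limits of the rule bring down, and of *Col16a1*. To set the cell cycle aside, members were also compared with 1731 male and 1369 female barcodes that met the same rule except that they had no *Ednrb* UMI. There 3060 genes could be compared, 84 (2.75%) were at least 2-fold higher and 34 (1.11%) at least 2-fold lower, and 46 of the 50 genes of the first comparison were again at least 2-fold higher.

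**Figure D2:**
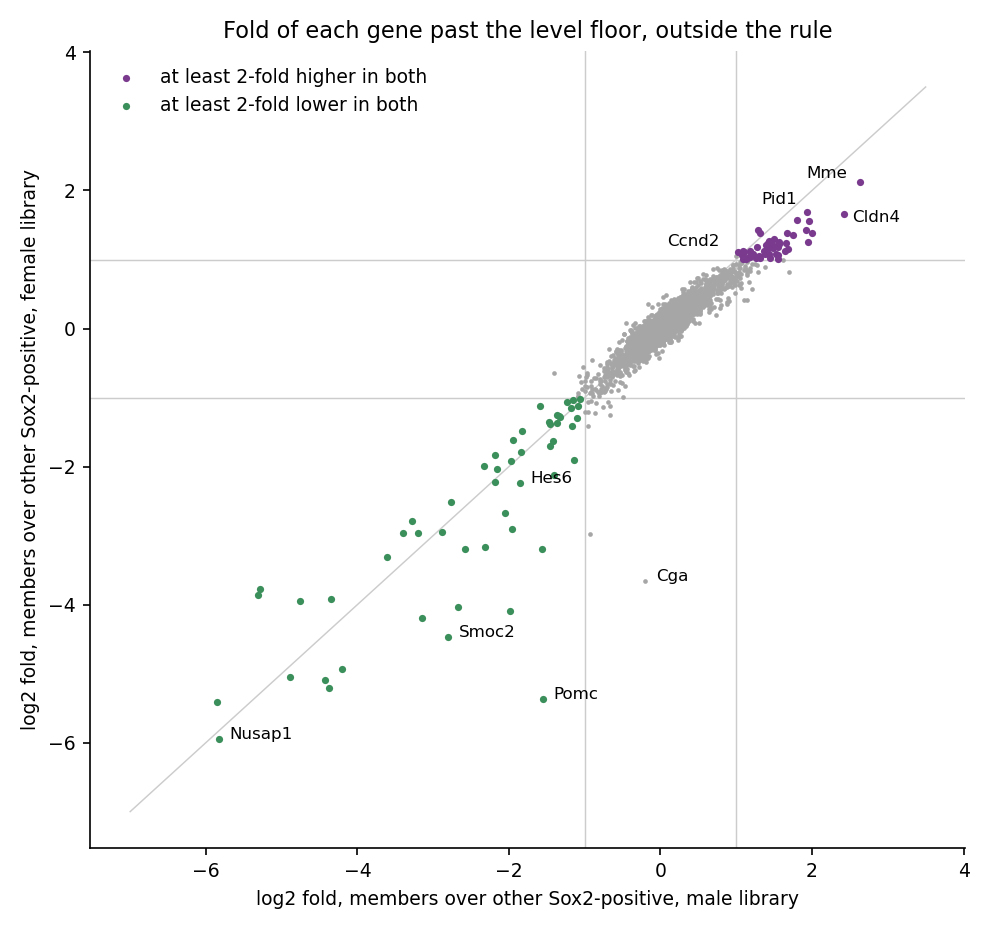
Log2 fold of members over the other *Sox2*-positive barcodes in the male (horizontal axis) and female library (vertical axis), 1 point per gene past the minimum level and outside the rule, with lines at 2-fold and on the diagonal. Genes at least 2-fold higher in both libraries (purple) include *Mme* at 2.64 and 2.12, those at least 2-fold lower (green) include *Nusap1* at -5.83 and -5.95, and *Pomc* and *Cga* lie far from the diagonal.

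Of 9 genes of the endothelin system, 3 passed the minimum level: *Ednrb*, *Mme* and *Ece1*. *Mme* was past 2-fold, and *Ece1*, which encodes the enzyme that cuts the endothelin precursors to active peptides, had 141 CPM (127 to 155) and 167 CPM (157 to 177) against 89.8 and 114 CPM. The ligands were scarce. *Edn1* was at 1.72 CPM (5 UMIs) and 3.82 CPM (25 UMIs) in members against 0.281 and 0.985 CPM, *Edn2* at 22.1 and 26.7 CPM against 12.2 and 15.8 CPM, and *Edn3* at 21.4 and 27.8 CPM against 17.0 and 21.1 CPM. The other receptor gene, *Ednra*, was at 8.96 CPM and 9.32 CPM against 3.84 and 5.01 CPM, while *Ece2* had 0 UMIs in male members and 1 UMI in female ones, and *Kel* 0 in both, which allows up to 1.27 and 0.564 CPM at the upper 95% bound.

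Genes of the epithelial junction and of simple epithelial keratins held several genes past the fold. Of 14 measured genes, 6 were at least 2-fold higher in both libraries and 0 lower, against 1.6% of all genes measured. This list was chosen with earlier results of these data known and holds *Cldn4*, so its count is no independent evidence. Over the 29 genes of the list with 100 UMIs, the median log2 fold was 0.82 and 0.77, where it was 0.01 and 0.02 over all genes outside the rule. *Krt18* and *Krt8*, partners in the intermediate filaments of simple epithelia, were at 1437 CPM (1394 to 1481) and 409 CPM (386 to 433) in male members, against 492 and 176 CPM. In female members *Krt18* was at 1346 CPM (1318 to 1374) and *Krt8* at 508 CPM (491 to 526), against 591 and 241 CPM. *Krt19* was less abundant but differed by more, at 37.5 CPM (30.8 to 45.3) and 45.5 CPM (40.5 to 51.0) against 6.32 and 14.96 CPM. Claudins, which seal tight junctions, followed the keratins. *Cldn9* was at 229 CPM (212 to 247) and 255 CPM (243 to 268) against 80.9 and 104 CPM, *Cldn6* at 180 CPM and 179 CPM against 66.8 and 84.8 CPM, and *Cldn23* at 63.0 and 66.2 CPM against 15.8 and 25.3 CPM. *Cldn3* (2.06-fold and 1.77-fold), *Cldn7* (2.21-fold and 1.72-fold) and *Ocln* (2.09-fold and 1.95-fold) passed the fold in the male library only. Not all epithelial genes differed: *Epcam* was at 2085 and 2100 CPM in members and at 1992 and 2050 CPM in the others.

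Among 10 measured genes of luminal and secretory epithelium, *Anxa2*, *S100a6* and *Cryab* were at least 2-fold higher in both libraries. In this list 0 were lower, and of all genes measured 1.6% were at least 2-fold higher. The list was likewise chosen with earlier results of these data known, so its count is no independent evidence. *Anxa2*, which encodes a calcium-dependent membrane-binding protein, was at 348 CPM (327 to 370.1) and 392 CPM (377 to 408) against 130 and 174 CPM. *Cryab*, a small heat shock protein, had 336 CPM and 334 CPM against 119 and 145 CPM, and *Hspb1*, another of that family, 139 CPM and 171 CPM against 51.4 and 70.8 CPM. *Clu*, which encodes the secreted chaperone clusterin, was 2.08-fold and 1.93-fold higher.

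Among the other leading genes, *Cd59a*, an inhibitor of the membrane attack complex of complement, was at 312 CPM (293 to 333) in male and 380 CPM (365 to 395) in female members, against 80.5 and 129 CPM. *Tm4sf1*, a tetraspanin-like membrane protein, was at 412 CPM (389 to 436) and 449 CPM (433 to 466) against 109 and 168 CPM. *Scpep1*, a serine carboxypeptidase, was 3.86-fold (3.55 to 4.19) higher in male and 2.39-fold (2.24 to 2.55) higher in female members, a wider gap between the libraries than for most leading genes. *Mmp15*, a membrane-bound metalloproteinase, was at 79.9 and 83.4 CPM against 27.1 and 34.9 CPM, *Cpxm2* at 83.0 and 107 CPM against 24.8 and 41.5 CPM, and *Pid1* at 66.5 and 62.5 CPM against 17.3 and 19.4 CPM. These genes stood further apart from barcodes of the same rule without *Ednrb*, where *Cd59a* was 6.61-fold and 4.48-fold, *Tm4sf1* 6.64-fold and 4.43-fold, and *Scpep1* 7.37-fold and 3.98-fold higher.

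*Cyr61* was the only 1 of 5 measured genes of the YAP/TAZ list past 2-fold, and the median log2 fold over the 20 genes of that list with 100 UMIs was 0.24 and 0.35. YAP and TAZ are coactivators that bind DNA through TEAD proteins and, with them, switch on *Cyr61* and *Ctgf*. *Cyr61* was at 782 CPM (750 to 815) in male and 852 CPM (829 to 874) in female members, against 250 and 391 CPM, and *Ctgf* has been given above. The genes of the coactivators differed less: *Yap1* was at 25.1 and 24.0 CPM against 20.6 and 19.5 CPM, and *Wwtr1*, which encodes TAZ, at 32.7 and 34.8 CPM against 18.8 and 23.0 CPM. *Amotl2*, another target, was at 47.9 and 53.2 CPM against 42.1 and 42.5 CPM. Since *Cyr61* and *Amotl2* share the core of the TEAD motif yet differ in their folds, their upstream stretches are shown here, from RefSeq promoters on GRCm38.p6, in the direction of transcription. The capitals mark the match to GGAATG, which lies on the opposite strand in both. The stretches are chr3:145650071-145650100 on the minus strand for *Cyr61* and chr9:102717727-102717756 on the plus strand for *Amotl2*.
Cyr61: cgcgccaaccaaCATTCCtgagatgtttga
Amotl2: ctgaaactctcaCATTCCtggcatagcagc
A match on either strand in the 250 bases upstream of the start was found in 12.6% of 32851 promoters, so it is common, and it is a description, not a binding site. The 1 promoter each listed for *Cldn4* and *Ednrb* held none, and 1 of the 3 listed for *Mme* did. Of the YAP/TAZ list, *Ajuba*, *Ankrd1* and *Axl* had a match too, and the 2 promoters listed for *Lats2* had none. No promoter was listed for *Ctgf* or *Tead1*, and the remaining genes of that list, such as *Yap1* and *Wwtr1*, were not searched.

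Genes that interferon induces were also frequent among the leading genes. A list of 41 such genes was written after these leading genes had been seen, so its count is no independent evidence. Of 11 measured, 6 were at least 2-fold higher in both libraries (*Isg15*, *Oasl2*, *Samd9l*, *Ifitm3*, *Bst2* and *Rtp4*) and 0 lower, against 1.6% of all genes measured, with a median log2 fold of 0.72 and 0.55 over 37 genes. *Ifitm3*, which encodes a membrane protein that blocks viral entry, was at 2537 CPM (2480 to 2596) and 2423 CPM (2386 to 2462) against 942 and 1022 CPM. *Isg15*, a ubiquitin-like modifier, was at 121 CPM (109 to 134) in male and 64.6 CPM (58.6 to 71.1) in female members, against 48.4 and 24.7 CPM, so that the male level was higher in both classes and the folds of 2.497 (2.23 to 2.79) and 2.62 (2.34 to 2.93) overlapped. *Oasl2* was at 91.0 and 81.3 CPM against 26.1 and 27.3 CPM, and *Bst2*, which tethers budding virus particles, at 200.5 and 110 CPM against 88.3 and 53.1 CPM. *Ifit1* was too low to be counted, at 15.5 CPM (11.3 to 20.7) and 13.7 CPM (11.1 to 16.9), but was 4.30-fold and 5.45-fold over the others. *Irf7*, a transcription factor of this response, was at 6.201 and 4.585 CPM against 2.15 and 1.64 CPM.

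The core of the element through which interferon acts, GAAA, any 2 bases, GAAA, was searched on both strands in the same promoters. The 3 genes with a match are shown, with all matches in the stretch in capitals (overlapping matches run together). The stretches are chr4:156200871-156200900 on the minus strand for *Isg15*, chr8:71537580-71537609 on the minus strand for *Bst2*, and chr19:34640775-34640804 on the plus strand for *Ifit1*, again from RefSeq on GRCm38.p6 and in the direction of transcription.
Isg15: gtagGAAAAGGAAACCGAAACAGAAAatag
Bst2: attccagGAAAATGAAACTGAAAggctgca
Ifit1: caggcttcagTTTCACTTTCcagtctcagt
*Isg15* has 3 overlapping matches and *Bst2* 2, while the *Ifit1* match shown, 1 of 2 upstream, is on the opposite strand. The core was found in 2.98% of all promoters. The promoters listed for *Oasl2*, *Samd9l*, *Ifitm3* and *Irf7* held none within these 250 bases. No promoter was listed for *Rtp4*, and the other genes of the interferon list were not searched.

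Factors of pituitary SCs and progenitors differed little beyond the markers. Of 10 measured outside the rule, 0 were 2-fold higher or lower in both libraries, and the median log2 fold over 14 genes was 0.26 and 0.36. *Pitx1*, *Lhx3* and *Six6*, transcription factors of the whole gland, were at 195, 123 and 419 CPM in male members and at 236, 132 and 432 CPM in the other male barcodes. In female members they were at 193, 118 and 435 CPM, against 224, 133 and 482 CPM. *Foxj1*, a regulator of motile cilia, was 1.81-fold (1.39 to 2.33) and 1.97-fold (1.65 to 2.32) higher, though at 22.4 and 26.9 CPM only. Of 2 measured cilia genes, 0 were at least 2-fold higher in both libraries and 1, the tubulin gene *Tubb4b*, was lower, and the list had a median log2 fold of 0.03 and 0.26 over 14 genes. Against barcodes of the same rule without *Ednrb*, the log2 folds of *Tubb4b* were -0.36 and -0.17, under 2-fold. In the retinoic acid list 0 of 3 measured genes passed the fold, and *Aldh1a2* did not differ in a shared direction, at 522 CPM (496 to 549) against 463 CPM and 392 CPM (377 to 408) against 400 CPM.

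Of 4 measured genes of Notch signalling, 0 were at least 2-fold higher in both libraries and 1, *Hes6*, was lower, and the median log2 fold over 18 genes was 0.25 and 0.07. *Notch2* was at 240 CPM (223 to 259) and 196 CPM (185 to 207) against 140 and 134 CPM, and *Notch1* at 42.7 and 39.7 CPM against 20.8 and 25.3 CPM. *Hes1*, the repressor that Notch induces, was at 1033 CPM (996 to 1071) in male and 1932 CPM (1899 to 1966) in female members against 530 and 1079 CPM, and *Hey1* was at 196 and 173 CPM against 116 and 128 CPM. The ligand gene *Dll1* was lower, at 28.6 and 31.0 CPM against 42.7 and 46.2 CPM. *Hes6*, which opposes *Hes1* and goes with differentiation, was at 147 CPM (134 to 162) and 81.6 CPM (74.8 to 88.8) against 535 and 386 CPM.

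In the other signalling lists, few genes passed the fold. *Fzd4*, a WNT receptor gene, did so among 6 measured WNT genes (66.1 and 82.1 CPM against 30.0 and 40.2 CPM), and *Id4*, an inhibitor of basic helix-loop-helix factors, among 5 measured genes of BMP and TGF-beta (86.1 and 82.5 CPM against 29.5 and 39.4 CPM). *Bmp4* was scarce in members, at 3.45 CPM (1.65 to 6.34) and 3.97 CPM (2.60 to 5.82) against 23.1 and 20.8 CPM. The Hedgehog list had 0 of 2 and the list of FGF and EGF response 0 of 5. In that last list *Egfr* was at 41.3 and 52.4 CPM against 21.5 and 28.8 CPM, and *Fgfr1* at 107 and 110 CPM against 55.5 and 67.8 CPM. Of 6 measured matrix and integrin genes 0 passed the fold, with *Col4a1*, a basement membrane collagen, at 164 and 150 CPM against 91.4 and 92.1 CPM.

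**Figure D3:**
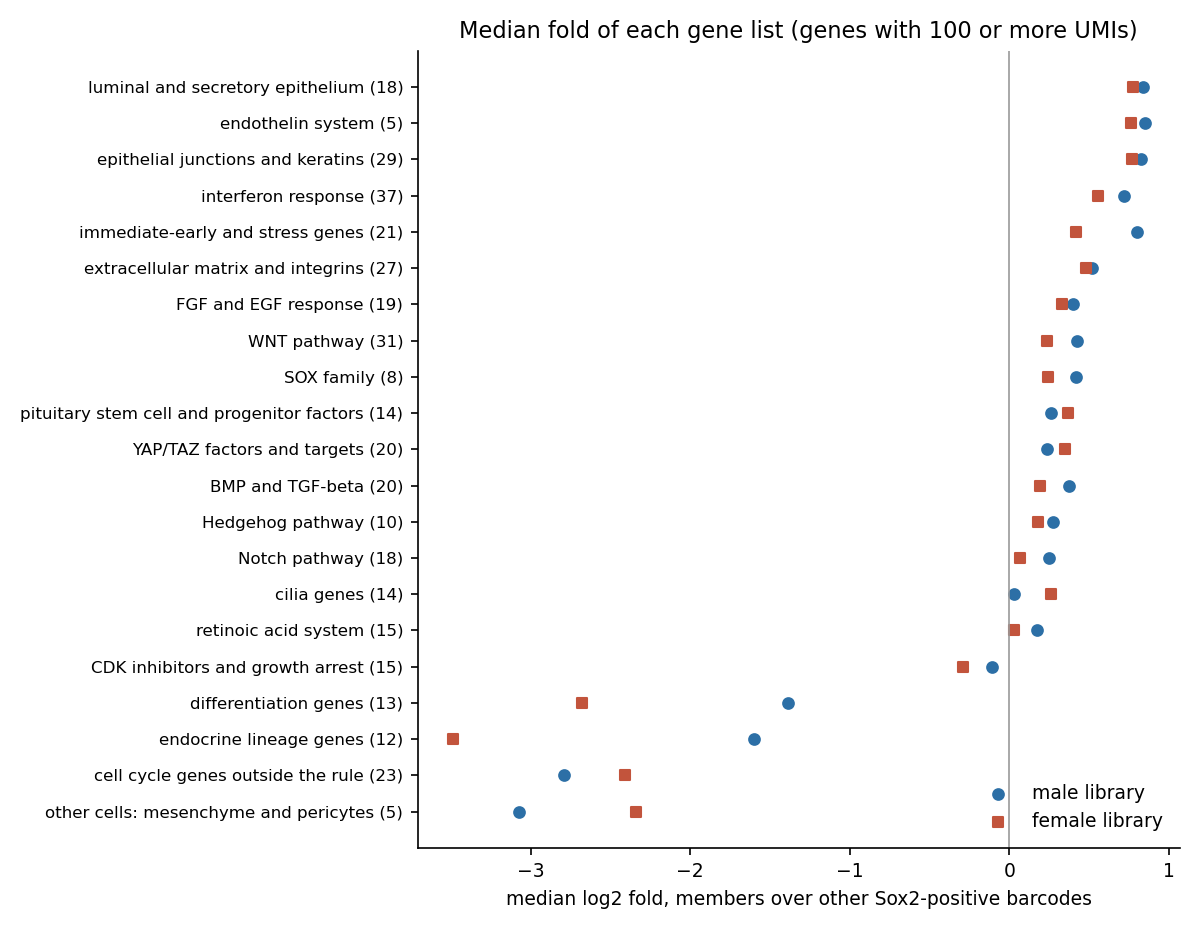
Median log2 fold (horizontal axis) of members over the other *Sox2*-positive barcodes for each gene list with at least 4 such genes, other than the markers of these cells (vertical axis, with the number of genes that had 100 or more UMIs), for the male (circles) and female library (squares). Luminal, endothelin and junction genes have medians of 0.76 to 0.85 and immediate-early genes of 0.80 and 0.42, while differentiation, endocrine, cell cycle and mesenchymal genes lie lowest.

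The word quiescent in the name of these cells rests on the limits of the rule. The 14 genes it caps were low by choice, and 4 further cell cycle genes (*Ccnb2*, *Tpx2*, *Nusap1* and *Tyms*) of 9 measured were at least 2-fold lower, which adds nothing independent. *Ccnd2*, a D-type cyclin of G1, was higher in members, at 239 CPM (221 to 257) and 413 CPM (398 to 429) against 117 and 191 CPM, and also higher than in barcodes of the same rule without *Ednrb*, at 91.5 and 141 CPM. *Ccnd1* went the other way, at 179 and 171 CPM against 258 and 234 CPM. Among inhibitors of cyclin-dependent kinases and growth arrest genes, 0 of 8 measured passed the fold. *Cdkn1c* was at 645 CPM (616 to 675) and 564 CPM (546 to 583) against 697 and 691 CPM, *Cdkn1b* at 98.9 and 97.5 CPM against 90.6 and 87.3 CPM, and *Cdkn1a* at 23.8 and 25.1 CPM against 35.4 and 36.3 CPM.

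Many *Ednrb*-rich barcodes were kept out of the members by the cell cycle limits. Of the *Sox2*-positive barcodes with 2 or more *Ednrb* UMIs, 60.0% (56.5 to 63.4) of 802 and 43.7% (41.1 to 46.4) of 1382 were over at least 1 of these limits. Among *Sox2*-positive barcodes without *Ednrb* the shares were 31.9% and 21.1%. Depth moves with this: those *Ednrb*-rich barcodes over the limits that met the rest of the rule, 439 male and 577 female, had medians of 20101 and 12242 UMIs, and its part in these shares was not tested. Of 3182 genes compared between members and these barcodes, 1 (0.0314%), *Calml4*, named after its values were seen, was at least 2-fold higher in members in both libraries (log2 folds of 1.06 and 1.11), and 141 (4.43%) were at least 2-fold lower. *Krt18* was at 975 and 1030 CPM in these barcodes, *Ifitm3* at 1650 and 1712 CPM, *Cyr61* at 567 and 749 CPM, and *Mme* at 38.3 and 62.5 CPM. Each of these 4 levels lay between that of members and that of barcodes of the same rule without *Ednrb*.

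*Sox2*-positive barcodes with *Lef1*, a WNT effector, are the remaining class set beside the members. There were 1619 male and 1037 female ones. *Mme* was at 2.58 and 4.48 CPM in them, *Tm4sf1* at 29.2 and 30.0 CPM, *Krt18* at 198 and 209 CPM, and *Cyr61* at 75.8 and 92.8 CPM, the lowest of the 5 classes for each of these genes in both libraries. *Mycl*, a gene of the MYC family, was in contrast at 297 and 256 CPM there, and at 29.3 and 23.4 CPM in members.

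**Figure D4:**
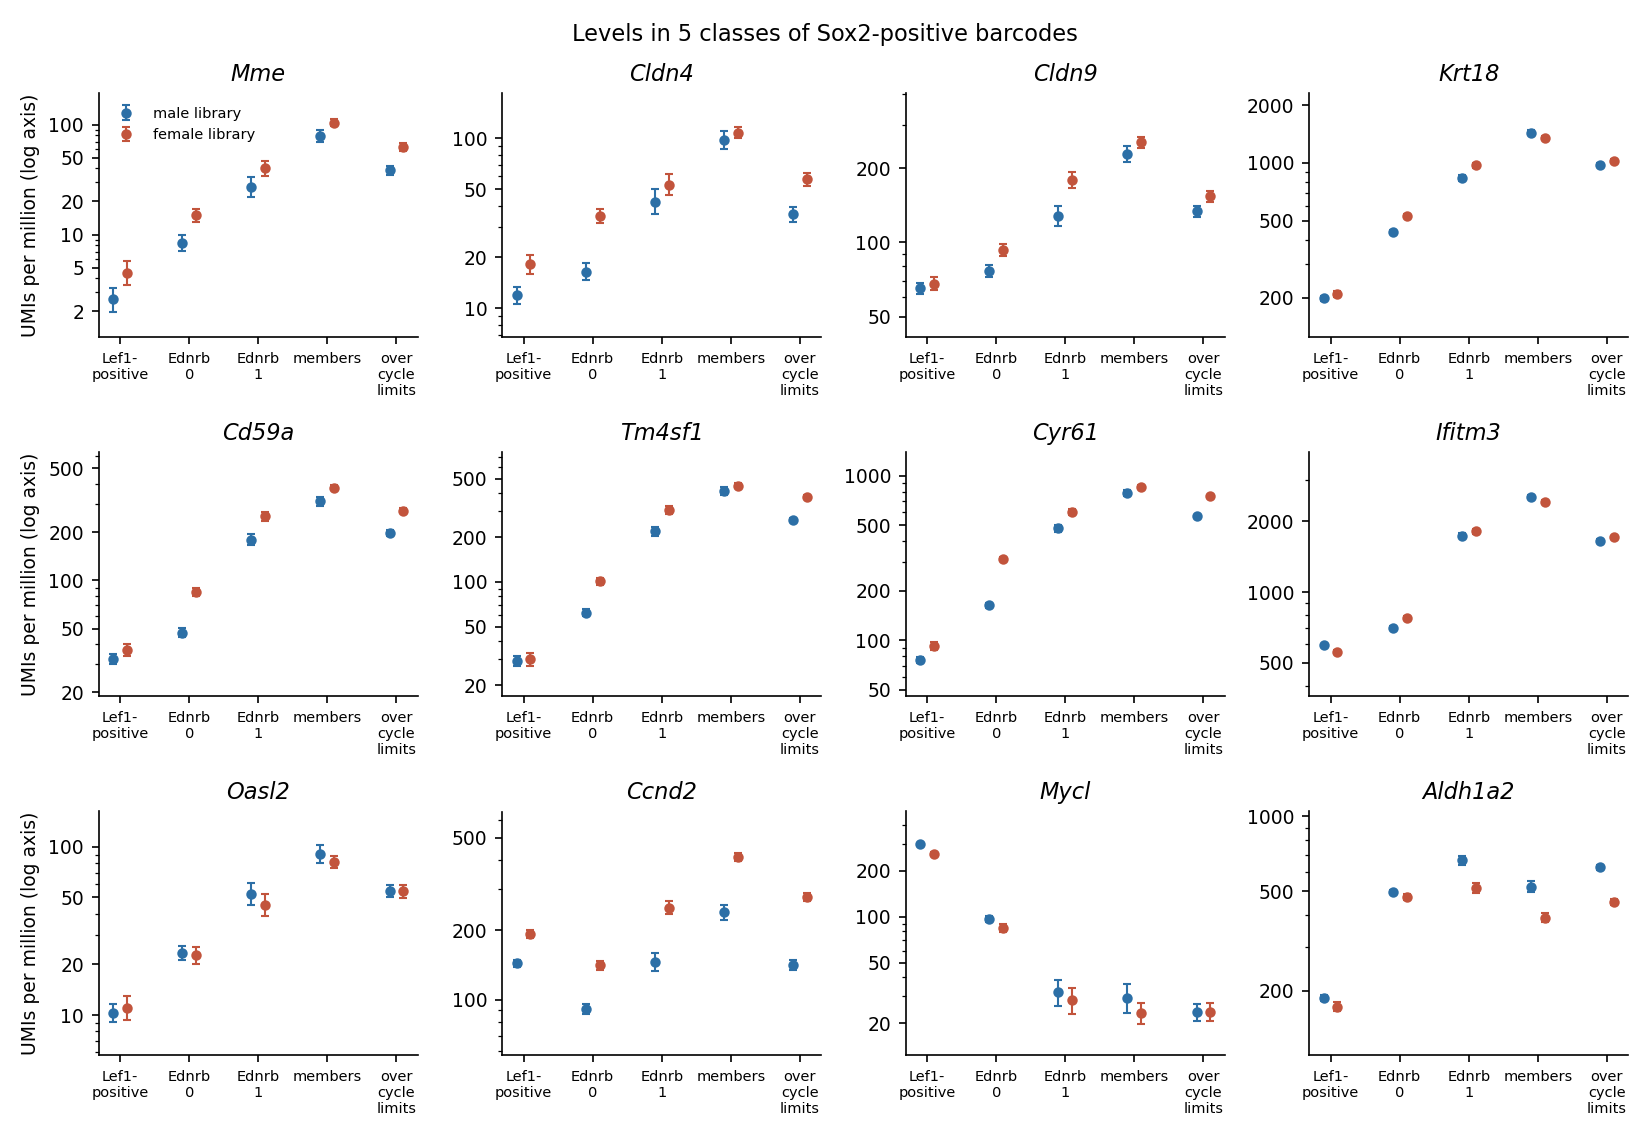
CPM on a log axis with exact Poisson 95% intervals for 12 genes in *Lef1*-positive barcodes, barcodes of the same rule with 0 and 1 *Ednrb* UMI, members, and *Ednrb*-rich barcodes over the cell cycle limits, for the male (blue) and female library (red). From *Mme* to *Oasl2* the members are highest in both libraries, *Mycl* runs from 297 and 256 CPM in *Lef1*-positive barcodes to 29.3 and 23.4 CPM in members, and *Aldh1a2* is not highest in members in either library.

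Genes of commitment were low in members. Of the differentiation genes, *Smoc2* and *Mycl* were at least 2-fold lower in both libraries, both against the other *Sox2*-positive barcodes and against barcodes of the same rule without *Ednrb*. *Mycl* was at 29.3 CPM (23.4 to 36.2) and 23.4 CPM (19.8 to 27.4) against 133 and 109 CPM. *Smoc2*, a matricellular protein, was at 14.1 CPM (10.1 to 19.2) in male and 3.97 CPM (2.60 to 5.82) in female members, against 98.3 and 88.2 CPM. *Neurod4* was at 1.72 and 0.917 CPM against 8.63 and 8.50 CPM. The *Lef1* limit of the rule bears on these, since *Mycl* was high in *Lef1*-positive barcodes, but within barcodes without *Lef1* it was still at 96.6 and 84.1 CPM where *Ednrb* was absent.

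Hormone and secretory genes were lower in members as well, and these values rest on few barcodes. *Pomc*, the precursor of ACTH and MSH, was at 3767 CPM in male and 99.2 CPM in female members, against 11014 and 4081 CPM. Of the 10933 *Pomc* UMIs of male members, 96.0% were in the 10 richest members, and 1 member held 9487. Barcodes with over 5000 CPM of *Pomc*, *Gh*, *Prl* or *Cga* made up 3.36% (1.62 to 6.08) of male and 0.941% (0.379 to 1.93) of female members, and 14.6% and 7.09% of barcodes of the same rule without *Ednrb*. Without them, *Pomc* in members was 0.918-fold and 0.718-fold that of barcodes without *Ednrb*, and *Pcsk2* 1.13-fold and 0.533-fold, whereas *Chga* at 0.201-fold and 0.175-fold, *Mycl* at 0.266-fold and 0.280-fold, and *Hes6* at 0.291-fold and 0.265-fold remained lower. A *Pomc* UMI was found in 72.8% of male and 28.2% of female members. In collagen-rich barcodes without *Sox2* the shares were 74.7% and 21.1%, and the source of these UMIs was not tested. At the thinned depth the female shares were 19.4% (16.6 to 22.5) and 15.1% (10.9 to 20.2), with overlapping intervals.

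Immediate-early genes, which rise within minutes of cell dissociation and other stimuli, were also higher in the members. Of 18 measured immediate-early and stress genes 0 were at least 2-fold higher in both libraries, but their median log2 fold over 21 genes was 0.80 and 0.42. The 22 genes of the list summed to 21796 and 19383 CPM in members, against 13022 and 14663 CPM. *Fos* was at 5889 and 4854 CPM against 3611 and 3909 CPM, *Jun* at 3281 and 2913 CPM against 1459 and 1826 CPM, and *Atf3* at 905 and 702 CPM against 279 and 399 CPM. Of the members, 18.1% (13.9 to 23.0) and 26.3% (23.2 to 29.7) were at or below the median level, over *Sox2*-positive barcodes, of 10 such genes summed. Folds were also taken among barcodes at or below that median, a split chosen after seeing the data. There *Mme* was 5.91-fold (3.69 to 9.03) and 6.42-fold (5.31 to 7.74) higher in members, and *Cldn4* 8.78-fold and 4.20-fold. *Krt18* was 3.55-fold and 2.70-fold, *Ifitm3* 3.31-fold and 2.97-fold, and *Cyr61* 2.82-fold (2.41 to 3.28) and 2.46-fold (2.30 to 2.62) higher. The part of the immediate-early response in these folds was not tested. The number of genes at least 2-fold higher in both libraries was then 81 of 3093 (2.62%), and of those at least 2-fold lower 75 (2.42%), from 54 male and 196 female members.

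Levels were also set against the number of *Ednrb* UMIs at equal depth. After thinning to 5000 UMIs, barcodes that met the rest of the rule were split into those with 0, 1, 2, 3 to 4, and 5 or more *Ednrb* UMIs. *Krt18* was at 545, 1053, 1476, 2177 and 3094 CPM over these classes in the male library. In the female library it was at 651, 1094, 1340, 1461 and 2000 CPM. *Anxa2* ran from 106 to 671 CPM and from 153 to 648 CPM, and *S100a6* from 86.9 to 471 CPM and from 87.4 to 308 CPM. *Ifitm3* differed most between 0 and 1 *Ednrb* UMI, going from 918 to 2112 CPM and from 1022 to 2153 CPM, and reached 3529 and 3101 CPM at 5 or more. *Mme* was at 11.4, 37.3, 87.0, 138 and 176 CPM in the male library and at 22.0, 61.4, 93.5, 127 and 145 CPM in the female library. The highest male class held 17 barcodes. Without it, *Cldn4* was not higher beyond 2 *Ednrb* UMIs in that library (95.7 and 80.8 CPM, with overlapping intervals). *Krt18* was higher there, with intervals apart. *Anxa2* (383 and 492 CPM) and *S100a6* (176 and 273 CPM) were also higher, but their intervals overlapped. In the counts as deposited, where depth was not equal, male *Cldn4* was at 68.8, 98.3 and 146 CPM in the last 3 classes. After thinning, several other leading genes were without a steady order, with overlapping intervals between neighbouring classes. *Isg15* was at 126, 119 and 118 CPM in the last 3 male classes and at 80.5, 92.9 and 55.4 CPM in the female ones, and *Pid1* at 91.3, 69.2 and 47.1 CPM in the male ones. *Cyr61* was at 1146 and 1000 CPM, and *Cd59a* at 477 and 447 CPM, in the last 2 male classes. *Cldn23* was at 75.3, 51.2 and 96.4 CPM in the last 3 female classes. Some of these orders differed in the counts as deposited. There *Pid1* was at 56.6, 73.3 and 72.5 CPM and *Isg15* at 76.6, 143 and 161 CPM in the last 3 male classes. *Cldn23* was at 54.8, 63.5 and 81.3 CPM in the female ones, while male *Cyr61* and *Cd59a* were again not higher in the last class. After thinning, *Sox9* was highest at 2 *Ednrb* UMIs, at 150 and 157 CPM, and at 70.6 CPM (25.9 to 154) and 111 CPM at 5 or more. The intervals overlapped from 2 UMIs on. As deposited, *Sox9* had no such peak, at 118, 141 and 140.5 CPM in the last 3 male classes. In the last 3 female classes it was then at 135, 142 and 158 CPM. *Aldh1a2* went, after thinning, from 564 to 353 CPM and from 507 to 369 CPM between the first class and the last.

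**Figure D5:**
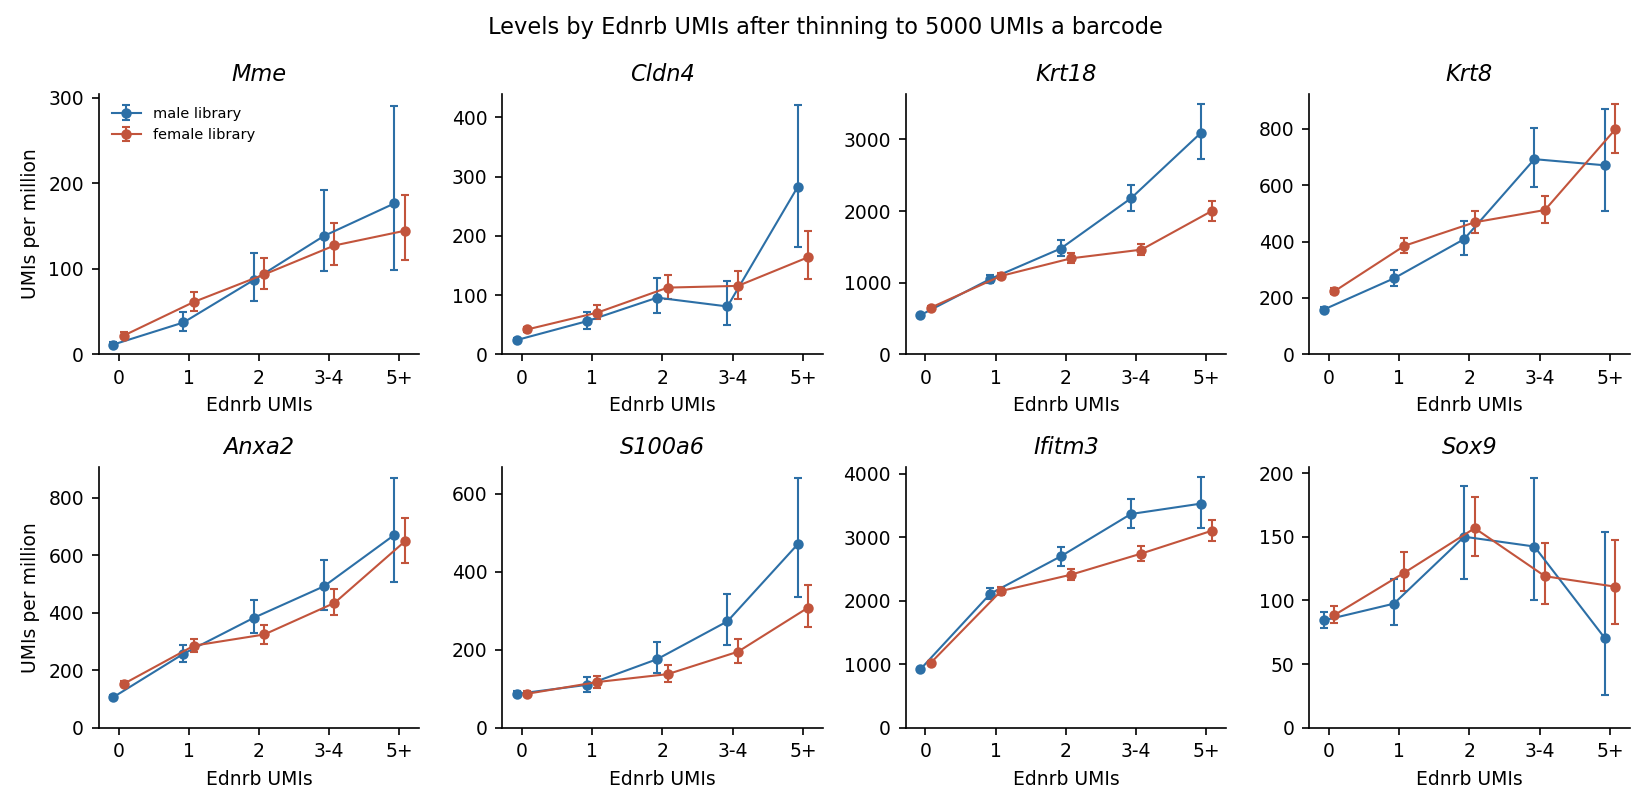
CPM (vertical axis, from 0) with exact Poisson 95% intervals for 8 genes by *Ednrb* UMIs per barcode (horizontal axis) after thinning to 5000 UMIs, for the male (blue) and female library (red). *Krt18* is at 3094 and 2000 CPM in the highest class, and intervals are wide in the highest male class of 17 barcodes. *Sox9* is highest at 2 *Ednrb* UMIs in these thinned counts, with overlapping intervals from 2 UMIs on.

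Over 265 male and 716 female members thinned to the same depth, the median Fano factor (variance over mean of the UMIs, 1 for pure counting) was 1.07 and 1.06 over 2861 genes. Ranked by the lower of its values in both libraries, the 10 genes with the highest Fano factor were *Gh*, *Malat1*, *Pomc*, *Nnat*, *Dlk1*, *Gm42418*, *Gnas*, *Atf3*, *Jun* and *Fos*. *Malat1*, a nuclear non-coding RNA, had Fano factors of 31.0 and 34.1, and *Gm42418*, which overlaps ribosomal RNA sequence, of 11.7 and 7.42. *Dlk1*, an imprinted gene for a Notch-like membrane protein, had Fano factors of 15.3 and 11.8, with a mean of 5.91 and 5.82 UMIs and at least 1 UMI in 68.7% and 69.6% of members. Members were also lower in *Dlk1* than the other *Sox2*-positive barcodes, at 1225 CPM (1185 to 1266) and 1142 CPM (1116 to 1168) against 1926 and 2149 CPM. *Nnat*, another imprinted gene, had Fano factors of 36.2 and 15.7. *Fos* (9.20 and 5.30), *Jun* (6.15 and 5.37) and *Atf3* (8.87 and 6.33) varied as well, while *Gh* (657 and 60.4) and *Pomc* (819 and 27.6) owed their values to a few barcodes, since 2 male and 7 female members had 20 or more thinned *Gh* UMIs.

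Male and female members differed in few genes. Of 3213 genes compared, 7 were at least 2-fold higher in the female and 14 in the male members. *Xist* (3 male and 3710 female UMIs) and the Y-linked *Eif2s3y* (173 male and 0 female UMIs) followed the labels. *Fmo2*, a flavin-containing monooxygenase, was at 32.0 CPM (25.9 to 39.2) in male and 71.7 CPM (65.3 to 78.5) in female members, 2.24-fold (1.79 to 2.83) higher, and in the other *Sox2*-positive barcodes at 12.6 and 21.6 CPM, 1.72-fold. *Mettl7a1* was at 58.9 CPM (50.4 to 68.4) and 128 CPM (120 to 137), 2.18-fold (1.85 to 2.58) higher in female members, and 1.96-fold in the others. *Csnk2a1* was 2.15-fold higher in female members and 1.99-fold in the others. These differences between the libraries were thus found outside the members too. The genes highest in male members (*Cga*, *Pomc*, *Rbp4* and *Pcsk1n*, beside *Eif2s3y*) are hormone and secretory genes. All 188 *Rbp4* UMIs of male members were in 10 of them, and 97.05% of the *Cga* UMIs were in the 10 richest. Female levels in members were 0.0232-fold, 0.0263-fold, 0.0283-fold and 0.113-fold the male ones, in that order of genes. In the other *Sox2*-positive barcodes they were 0.255-fold, 0.371-fold, 0.269-fold and 0.351-fold, so the male library was higher there too.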

How the data were processed

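Counts of UMIs per gene and barcode were deposited by the authors as whole numbers, without normalization, for 31055 features. The authors made them with Cell Ranger 3.0.2 on mm10 with eGFP added. The deposited labels name both v2 and v3 of the 10x chemistry, and the study's methods v2. Every deposited barcode had at least 500 UMIs.

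Here, 71 features that share a symbol were left out. The members, lists and tests were chosen with earlier results of these data known. Named genes are those of the lists, the 15 with the highest and lowest folds over the other *Sox2*-positive barcodes and 10 over barcodes of the same rule without *Ednrb* (by the weaker library, at 50 CPM and 100 UMIs), 5 each way by sex, and 10 by Fano factor. Genes of the lists under these minimums are given as values. Some genes of the lists are not reported here. The interferon list, its motif and *Calml4* were chosen after their values were seen.

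Values were computed with scipy 1.17.1 and pandas 2.3.3. Fold intervals are exact for 2 Poisson rates. Limits of the ratio of shares are the bound of 1 share over the opposite bound of the other. Thinning drew 5000 UMIs per barcode without replacement (seed 1). Scrublet (scanpy 1.11.5) marked the top 0.8% per 1000 barcodes. Doublets were kept in the main values. The fold and thinning steps were tested on simulated data. Depth was 106039887 UMIs (male) and 62897759 UMIs (female).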

Additional observations from a re-analysis of the deposited data

Results flagged for a closer look

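*Rbp4*, which encodes the plasma carrier of retinol, went opposite ways in the libraries: its log2 fold of members over the other *Sox2*-positive barcodes was 1.09 for males and -2.15 for females. The difference was not tested. The 188 male UMIs were in 10 of 298 members, and 1 member held 144 of them, while the 12 female UMIs were in 8 members. Without hormone-rich barcodes, *Rbp4* in members was 0.0717-fold and 0.235-fold that of barcodes of the same rule without *Ednrb*.

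Some barcodes outside the limits on genes and mitochondrial UMIs met the rest of the rule and are not among the members. They were 5 of 2560 such barcodes in the male library (0.195%) and 9 of 192 in the female library (4.69%), above the 0.117% and 1.56% that a count of 0 would allow. All 9 female barcodes were over the mitochondrial limit, and 3 of them also had too few genes. The male ones were 3 with too few genes and 2 over the mitochondrial limit.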

How the results depend on the processing

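No paired analysis was possible because each group has 1 library. With the *Ednrb* minimum at 1 UMI, members were 11.3% of male and 23.9% of female *Sox2*-positive barcodes, a ratio of 2.13, and 33 genes were at least 2-fold higher in both libraries. At 3 UMIs the shares were 2.88% and 9.49%, and after thinning 4.22% and 12.4%. Limits of 500 or 2000 genes and of 5% or 20% of mitochondrial UMIs, removal of Scrublet-marked barcodes and removal of hormone-rich barcodes (chosen after seeing the data) left the shares within their intervals and the counts within 1.5 times, and the ratio of shares was from 2.13 to 3.29 over these settings. The counts of genes higher and lower followed the minimum level, with 101 and 181 at 20 CPM and 50 UMIs, and 28 and 25 at 100 CPM and 200 UMIs, since more or fewer genes were compared. They were 84 and 34 against barcodes of the same rule without *Ednrb*, and 1 and 141 against *Ednrb*-rich barcodes over the cell cycle limits. Barcodes at or below the median immediate-early level gave 81 higher. The last 2 were chosen after seeing the data, and the cause of these changes was not tested. Over 53 named genes in each library, 28 of 1586 alternative folds had the opposite sign to the main one, and in 22 of these the main fold was at least 2-fold either way. Those 22 are given next. Against barcodes of the same rule without *Ednrb*, where few UMIs of cell cycle genes are left in either class, log2 folds became positive for *Nusap1* (1.33, female), *Pclaf* (0.63, female), *Tpx2* (0.72, male), *Cdca3* (0.20, male), *Prc1* (0.89, male), *Ccnb2* (0.36, female), *Spc25* (0.89, female), *Cenpa* (0.37, female) and *Spc24* (0.37, male, and 0.86, female). Without hormone-rich barcodes they did so for *Pcsk2* (0.45, male, and 0.018, female), *Pomc* (0.11, male) and *Tmem158* (0.047, male, and 0.14, female). Against *Ednrb*-rich barcodes over the cell cycle limits they did so for *Col16a1* (1.15), *Resp18* (1.20), *Pcsk2* (2.59), *Pomc* (3.63), *Pcsk1n* (0.51), *Chgb* (0.94) and *Smoc2* (2.49) in the male library. There the male folds of *Oacyl* and *Chga*, under 2-fold in the main comparison, also turned, to 3.10 and 2.12. Limits: levels under 10 CPM rest on few UMIs in male members, whose total was 2902605 UMIs.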
